A study of Mus musculus with 2 samples.

Results

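WWOX, FHIT, CSMD1, CNTNAP2, LRP1B, MACROD2, IMMP2L and PTPRD are 8 genes whose spans run from 0.899 Mb (IMMP2L) to 2.30 Mb (CNTNAP2), 14.1 Mb in all. To see where H2BK120ub lies along such genes, every peak that overlapped one of the hg19 spans by at least 1 bp was taken. This gave 375 of 101866 peaks in WT and 486 of 127444 peaks in UBR7-KO. Each list comes from 1 ChIP-seq library of cultured mouse liver primary cells, which the labels also describe as conditionally immortalized. One library is wild type (WT), and the other carries Alb-Cre;UBR7fl/fl (called UBR7-KO). Cells were taken, per the methods of the study, from male C57BL/6 mice at 8 weeks. In UBR7-KO, both floxed alleles of UBR7, an E3 ubiquitin ligase, are deleted by Cre under the albumin promoter, which is active in hepatocytes, so other liver cells keep the gene. With 1 library per genotype, no difference below has a replicate check and no test was possible. The lists hold no expression values, so neither the cell type nor the loss of UBR7 was checked. Although the samples are labelled as mouse, the peaks have human positions, and all positions are given in hg19. The sources used here do not settle this conflict, and its effect on where the peaks lie was not tested.

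H2BK120ub is histone H2B carrying a single ubiquitin on a lysine near its C-terminus. It is placed mainly by RNF20 and RNF40 as RNA polymerase II travels through a gene, and it therefore tends to mark transcribed gene bodies behind the start. In a very long gene, the polymerase needs hours to reach the end, and the introns make up nearly all of the span. Several of these genes lie at common fragile sites, where DNA breaks under replication stress and where tumours often carry deletions.

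The genes fall into a group of intracellular enzymes and a group of membrane proteins. The enzymes are WWOX, an oxidoreductase with WW domains and a candidate tumour suppressor, FHIT, a hydrolase of dinucleoside polyphosphates lost in many tumours, MACROD2, which removes ADP-ribose from proteins, and IMMP2L, a peptidase of the inner mitochondrial membrane. The membrane proteins are CSMD1, an inhibitor of complement, CNTNAP2, a neurexin-like protein of axons, LRP1B, a receptor of the low-density lipoprotein receptor family, and PTPRD, a receptor tyrosine phosphatase.

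In hg19, the enzymes were taken as chromosome 16, 78133327 to 79246564 (WWOX), chromosome 3, 59735036 to 61237133 (FHIT), chromosome 20, 13976146 to 16033842 (MACROD2), and chromosome 7, 110303106 to 111202347 (IMMP2L). The membrane proteins were taken as chromosome 8, 2792875 to 4852328 (CSMD1), chromosome 7, 145813453 to 148118090 (CNTNAP2), chromosome 2, 140988996 to 142889270 (LRP1B), and chromosome 9, 8314246 to 10612723 (PTPRD). WWOX, MACROD2 and CNTNAP2 are read from the lower to the higher position and the other genes from the higher to the lower. Whether a peak lay in an exon or an intron was not analysed here.

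H2BK120ub covered little of these genes. Peaks took up 3.10% of the 8 spans in WT and 3.92% in UBR7-KO, against 12.4% and 10.96% of the whole length of the 22 autosomes. The rest of the autosomes was thus covered 4.0 times as densely as the genes in WT and 2.80 times in UBR7-KO. Each of the 8 genes was covered less than the rest of its own chromosome in both libraries. This gap ranged from 1.87 times for CSMD1 to 11.1 times for IMMP2L in WT, and from 1.82 times for CNTNAP2 to 5.11 times for LRP1B in UBR7-KO. Cover was uneven, however, and most of the autosomes also lay below these averages. Among the 1 Mb windows described below, the median covered share was 5.92% in WT and 7.46% in UBR7-KO. How many windows were covered less than the rest of their chromosome was not counted.

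In WT, the covered share ranked from WWOX (5.97%), CSMD1 (5.20%) and CNTNAP2 (4.17%) through MACROD2 (2.35%), FHIT (2.34%) and PTPRD (2.23%) to LRP1B (1.28%) and IMMP2L (1.13%). In UBR7-KO, CNTNAP2 came first (6.32%), followed by WWOX (5.71%), CSMD1 (4.86%), MACROD2 (3.86%), FHIT (3.11%), PTPRD (2.71%), IMMP2L (2.46%) and LRP1B (1.80%). The same 3 genes led in both libraries, and LRP1B and IMMP2L were the least covered in both. MACROD2, FHIT and PTPRD lay close together in WT, and without replicates no order among neighbours can be told from the spread between samples. Enzymes and membrane proteins were found near both ends of each ranking.

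**Figure D1:**
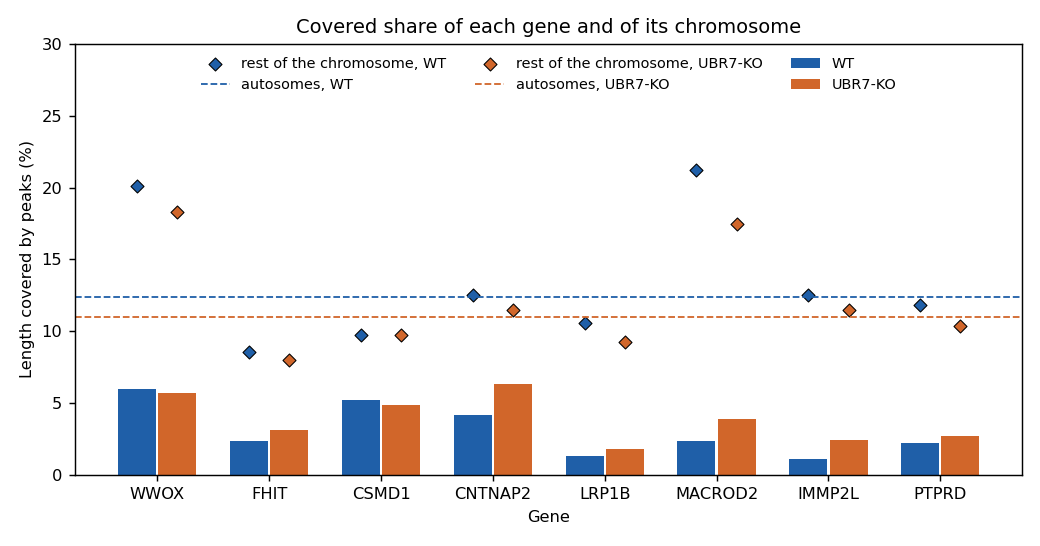
Share of each gene's length covered by H2BK120ub peaks (bars, percent) in WT and UBR7-KO, 1 library each, with the share of the rest of its chromosome (diamonds) and of the 22 autosomes (dashed lines). Every bar is lower than the diamond of the same library, and no bar passes 6.32%.

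To place the genes among regions of similar size, the autosomes were cut into 1 Mb windows. Of 2851 windows that touched none of the genes, 2690 held a peak in either list. The median covered share of a window was 5.92% for WT and 7.46% for UBR7-KO. Covered shares of 7 genes in WT and of all 8 in UBR7-KO were under these medians. LRP1B exceeded 61 windows in WT (2.27%) and 114 in UBR7-KO (4.24%), and IMMP2L exceeded 45 (1.67%) and 295 (10.97%). WWOX, in contrast, was at the middle of the windows in WT, where it exceeded 50.3% of them, and at 39.3% in UBR7-KO. CSMD1 exceeded 46.1% (WT) and 33.5% (UBR7-KO) of the windows, and CNTNAP2 38.7% and 43.1%. FHIT, MACROD2 and PTPRD lay between 13.3% and 25.1%.

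The genes held more peaks in UBR7-KO than in WT, and, unlike the autosomes as a whole, a larger covered length. Peak density was 26.5 per Mb in WT and 34.4 per Mb in UBR7-KO, with a ratio of 1.30 between peak numbers, against a ratio of 1.25 over the autosomes. Covered length had a ratio of 1.26, against 0.885 over the autosomes. UBR7-KO had more peaks in 7 of the 8 genes, and 79.2% of the 1 Mb windows also did. Covered length was larger in UBR7-KO for 6 of the 8 genes and for 57.0% of the windows.

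The ratio differed from gene to gene. IMMP2L had 10 WT peaks covering 10.1 kb and 19 UBR7-KO peaks covering 22.1 kb, a ratio of covered lengths of 2.18. MACROD2 followed with 51 WT and 74 UBR7-KO peaks and a ratio of 1.64. CNTNAP2 held 73 and 117 peaks, with a ratio of 1.51, and had the largest difference in covered share, 2.15 percentage points. LRP1B held 27 and 45 peaks (ratio of covered lengths 1.41), FHIT 32 and 38 (1.33) and PTPRD 59 and 71 (1.22). WWOX and CSMD1 had ratios slightly below 1. WWOX held 33 and 37 peaks with a ratio of 0.957, and CSMD1, the gene with the most peaks in WT, held 90 and 85 with a ratio of 0.935. The direction in single genes depended on the threshold. At a fold enrichment of at least 2.5, WWOX had a ratio of 4.82, while FHIT (0.675), LRP1B (0.517), MACROD2 (0.398) and PTPRD (0.568) were below 1. At 3 times the recovered background, WWOX (6.29) and CSMD1 (1.49) were above 1.

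A ratio above 1 was also common wherever the mark was sparse. Among 1133 of the windows whose mean covered share over both lists lay in the range of the genes, from 1.54% to 5.84%, UBR7-KO covered more in 74.6%. The median ratio of these windows was 1.27 (quartiles 0.995 and 1.65), and their summed covered lengths had a ratio of 1.30. The genes lay among the sparsely covered windows in the plot of genes and windows. The ratio also moved with the threshold on the peaks. It reversed to 0.789 at a fold enrichment of at least 2.5 (0.202 over the autosomes), was 1.0002 in lists of equal size (0.690), and was 3.16 for peaks whose pileup reached 3 times the background recovered from the fold enrichment (1.02). Relative to the autosomes, covered length in the genes was higher in UBR7-KO under each of these thresholds. The sparsely covered windows were not followed at these thresholds, so whether this was particular to the genes was not tested. By its definition, the multiple of the background is larger at a low background for the same fold enrichment. It was reached by 27.2% (WT) and 63.6% (UBR7-KO) of the genes' peaks, and by 28.7% and 53.9% in the sparsely covered windows.

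**Figure D2:**
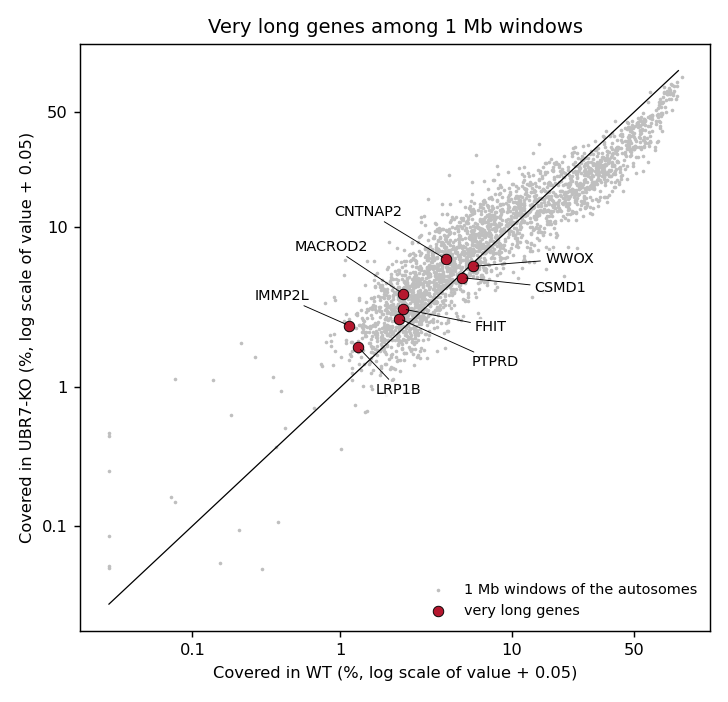
Share of length covered in WT (x axis) and UBR7-KO (y axis), in percent on log axes after adding 0.05, for 2690 windows of 1 Mb on the autosomes and the 8 genes. The genes lie within the cloud of sparsely covered windows, with 6 above and 2 (WWOX and CSMD1) below the line of equality.

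Peaks in the genes were short. Their length had a median of 795 bp for WT and 818.5 bp for UBR7-KO, against 1584.5 and 1361.5 bp over the lists. Peaks under 1000 bp made up 57.6% of them in WT and 56.8% in UBR7-KO, against 35.1% and 39.3% of the lists. None of the peaks in the genes exceeded 10000 bp in either library. Over the lists, 7721 peaks did so in WT (7.58%) and 4779 in UBR7-KO (3.75%). Peaks of the sparsely covered windows were of a similar length, with medians of 859 and 826 bp. Peaks over 10000 bp were rare there too, with 31 of 27835 in WT and 13 of 37323 in UBR7-KO.

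Fold enrichment, a peak's pileup plus 1 over the local background plus 1 in its own library, was ordinary. The median in the genes was 2.18 in both libraries, against 2.20 over the WT list and 2.15 over the UBR7-KO list. The lowest value in the lists was 2. Because of the added 1, equal fold enrichment in the 2 libraries does not mean an equal multiple of the background. The recovered background of the genes' peaks had a median of 1.91 in WT and 1.20 in UBR7-KO. The pileup, the stack of fragments over a peak, had a median of 5.56 in WT and 3.93 in UBR7-KO and was not compared between libraries, since it scales with a depth that is unknown. The background recovered from the fold enrichment was at the floor of its list (within 1% of 1.81 in WT and of 1.16 in UBR7-KO) for 28.8% of the genes' peaks in WT and 29.2% in UBR7-KO. Over the lists, this held for 7.39% and 8.90%, and in the sparsely covered windows for 12.4% and 14.01%. In WT, the share at the floor was highest in PTPRD (44.1%) and MACROD2 (41.2%), and in UBR7-KO in CSMD1 (47.1%).

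The peaks of highest fold enrichment were mostly short and inside the genes. CSMD1 held the highest of all in both libraries, at different places. In WT, it reached 3.92 at 4644459 to 4644967 (509 bp, 207.6 kb after the start, rank 78 of the list), where a UBR7-KO peak also lay. In UBR7-KO, it reached 3.89 at 4699056 to 4699417 (362 bp, 153.1 kb after the start, rank 31), with the nearest WT peak 24939 bp away. CNTNAP2 had its highest UBR7-KO value, 3.70, at 146171814 to 146172232, 358.6 kb after the start, and a WT peak lay there too. MACROD2 reached 3.43 in WT at 15781085 to 15781408 and 3.42 in UBR7-KO at 14255452 to 14255964, neither with a counterpart. In WT, CNTNAP2 reached 3.16 at its start. PTPRD reached 3.75 in WT (8857075 to 8859139) and 3.13 in UBR7-KO (10542732 to 10543179). In WT, the maxima of WWOX, LRP1B and IMMP2L were lower than those of the other genes. WWOX reached 2.62 in WT and 2.87 in UBR7-KO, LRP1B 2.90 and 2.95, and IMMP2L 2.74 and 2.92. FHIT had 3.14 in WT, at its start, and 2.75 in UBR7-KO, the lowest maximum of any gene there. That UBR7-KO peak (61210161 to 61210485) overlapped the longest WT peak of the gene (61206762 to 61210392, 3631 bp).

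The start was a position that the libraries shared in most genes. A peak covered the first base of 6 of the 8 genes in WT and of the same 6 genes in UBR7-KO, namely WWOX, CSMD1, CNTNAP2, LRP1B, MACROD2 and PTPRD. Within 5 kb of the start, 7 of 8 genes had a peak in WT (87.5%, 95% Wilson interval 52.9 to 97.8) and 7 of 8 in UBR7-KO. Other 10 kb windows of the same genes held a WT peak in 363 of 1393 cases (26.1%, interval 23.8 to 28.4) and a UBR7-KO peak in 445 (31.9%, interval 29.5 to 34.4). Over the autosomes, the figures were 37.7% in WT and 42.3% in UBR7-KO. The intervals cover counting error only, and neighbouring windows are not independent. At the other end of the genes, 3 of 8 had a peak within 5 kb in WT (37.5%, interval 13.7 to 69.4) and 5 of 8 in UBR7-KO (62.5%, interval 30.6 to 86.3).

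The start peak of WWOX was the longest peak of the gene in both libraries. It spanned 8233 bp in WT (chromosome 16, 78130121 to 78138353, fold enrichment 2.08) and 9563 bp in UBR7-KO (78129469 to 78139031, fold enrichment 2.02). The WT peak lay wholly within the UBR7-KO peak, with 5027 bp of it inside the gene. The start peak of CSMD1 spanned 6738 bp in WT (chromosome 8, 4847382 to 4854119, fold enrichment 3.06) and 2373 bp in UBR7-KO (4851263 to 4853635, fold enrichment 2.46). Here the UBR7-KO peak lay wholly within the WT peak, and the peaks reached 4947 bp (WT) and 1066 bp (UBR7-KO) into the gene.

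CNTNAP2 had a start peak of 1639 bp in WT (chromosome 7, 145812618 to 145814256), which had the highest fold enrichment of its WT peaks, 3.16. Its counterpart in UBR7-KO spanned 1197 bp (145812972 to 145814168) at 2.11. LRP1B had its longest peak at the start in both libraries, 4002 bp in WT (chromosome 2, 142886129 to 142890130) and 3246 bp in UBR7-KO (142888090 to 142891335). These peaks reached 3142 bp and 1181 bp into the gene.

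The start peak of MACROD2 spanned 1404 bp in WT (chromosome 20, 13975624 to 13977027) and 2121 bp in UBR7-KO (13974773 to 13976893). That of PTPRD spanned 1696 bp (chromosome 9, 10612623 to 10614318) and 1307 bp (10612589 to 10613895), and it lay almost wholly upstream of the gene, with 101 and 135 bp inside. Of the 6 pairs, the UBR7-KO peak was the shorter in 4, and its fold enrichment was the lower in 5, with LRP1B as the exception (2.07 in WT and 2.19 in UBR7-KO). The fold enrichment is relative to each library's own background, and without replicates these differences have no error.

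FHIT and IMMP2L departed from this pattern. The WT peak of FHIT stopped 2 bp short of the start, inside the gene (chromosome 3, 61235919 to 61237131) and had the highest fold enrichment of the gene in WT, 3.14. In UBR7-KO, the nearest peak was 2348 bp upstream of the start (61239481 to 61241139, fold enrichment 2.47), and no UBR7-KO peak overlapped the WT peak. IMMP2L had no peak near its start in either library. The nearest WT peak was 17874 bp upstream (111220221 to 111223961), and the nearest UBR7-KO peak was 29786 bp into the gene (111171106 to 111172561).

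**Figure D3:**
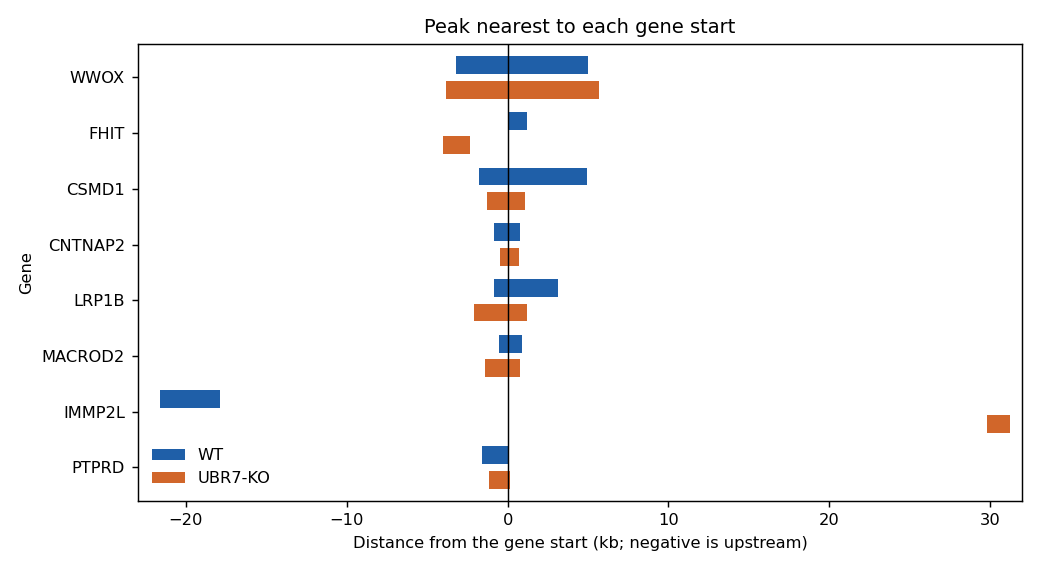
Extent of the peak nearest to each gene start, in kb from the start (negative is upstream), for WT and UBR7-KO. Peaks cross the start in both libraries for 6 genes, whereas FHIT has its UBR7-KO peak upstream and IMMP2L has its nearest peaks 17874 bp upstream (WT) and 29786 bp inside (UBR7-KO).

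At the stricter thresholds the start peaks thinned out. At a fold enrichment of at least 2.5, 3 of the 6 WT peaks and 0 of the 6 UBR7-KO peaks were left. This threshold kept 16.9% of the whole WT list and 9.77% of the UBR7-KO list, and 14.1% and 12.1% of the peaks in the genes, so a count of 0 among 6 says little. Among peaks with a pileup of 3 times the recovered background or more, 4 covered a start in each library.

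Next, each gene was cut into 10 equal parts, numbered from the start, and the covered length was followed along them. Part 1 held 10.4% of the covered length in WT and 9.88% in UBR7-KO, where an even spread gives 10%. In WT this share depended on the threshold, with 21.2% at a fold enrichment of at least 2.5 and 18.6% at 3 times the recovered background. In UBR7-KO it was 4.56% and 9.17%. Parts 1 to 5 held 38.9% (WT) and 36.3% (UBR7-KO), and parts 8 to 10 held 43.6% and 45.6%. Parts 6 to 10 held the larger share of the covered length in 5 of 8 genes (WT) and in 7 of 8 (UBR7-KO). At a fold enrichment of at least 2.5, parts 1 to 5 held 50% in WT, so that no excess in parts 6 to 10 was left there, and 40.9% in UBR7-KO.

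For the 8 genes together, the covered share in WT was 3.23% in part 1, 1.81% in part 5 and 4.79% in part 10. In UBR7-KO, it was 3.87% in part 1, 2.36% in part 2 and 7.11% in part 10. CNTNAP2 contributed much of part 10. Without it, part 10 had a covered share of 3.24% (WT) and 4.58% (UBR7-KO), and parts 1 to 5 held 40.8% and 39.2% of the covered length. The rise to the end in WT was not seen without CNTNAP2, since part 1 (3.41%) then exceeded part 10, and the most covered parts were part 8 in WT (4.51%) and part 9 in UBR7-KO (5.12%).

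**Figure D4:**
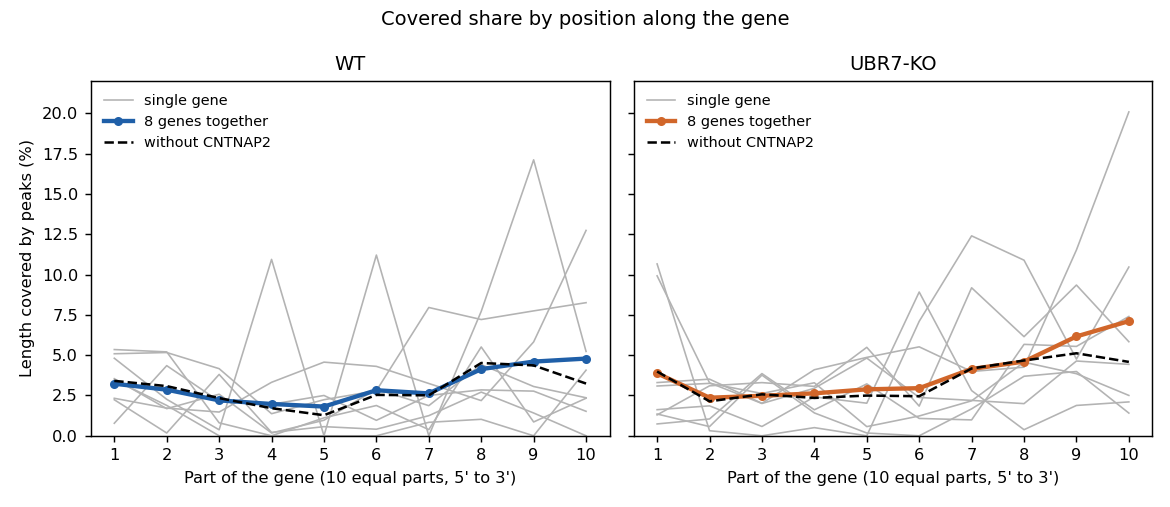
Covered share (percent) in each of 10 equal parts of the genes from the start (1) to the end (10), in WT and UBR7-KO, for single genes (grey), the 8 genes together (coloured) and the genes without CNTNAP2 (dashed). The coloured lines are lowest at 1.81% in part 5 (WT) and 2.36% in part 2 (UBR7-KO), and highest in part 10.

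CNTNAP2 was the only gene whose most covered part was part 10 in both libraries. Its part 10 had a covered share of 12.7% (WT) and 20.1% (UBR7-KO) and held 30.6% and 31.8% of the covered length of the gene. The fullest stretch of 50 kb was the same in both libraries, from 2200 to 2250 kb after the start, with 13.3 kb covered in WT and 16.1 kb in UBR7-KO. The longest UBR7-KO peak of the gene, 8796 bp, lay in the next 50 kb (148096524 to 148105319, 99.3% of the way along) and overlapped a WT peak. The flank of equal length beyond the end had covered shares of 26.8% (WT) and 22.7% (UBR7-KO), while those of the flank upstream of the start were 3.39% and 4.75%.

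CSMD1 also had more cover in its later parts, but its part 10 held 15.9% (WT) and 12.0% (UBR7-KO) of the covered length. Parts 6 to 10 held 65.3% (WT) and 66.6% (UBR7-KO) of its covered length, and the flank beyond its end was covered at 36.4% and 27.2%, against 8.34% and 10.7% upstream. Part 1 of CSMD1 was covered at 5.09% in WT but at 1.29% in UBR7-KO. In PTPRD, no part was covered above 4.35% in WT or 4.56% in UBR7-KO. Its highest peak in WT (8857075 to 8859139, fold enrichment 3.75, rank 146 of the list) lay 76.3% of the way along and coincided with its longest peak in UBR7-KO (8857057 to 8862243, 5187 bp).

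Parts 6 to 10 of WWOX held 69.2% (WT) and 79.9% (UBR7-KO) of its covered length, more than the 67.9% and 71.8% in CNTNAP2. WWOX was covered in blocks that differed between the libraries. Its part 4 was covered at 10.9% by WT peaks and at 0.506% by UBR7-KO peaks, whereas part 7 had 0% and 12.4%. No peak of either list fell on 173.9 kb between 438.6 and 612.4 kb after the start. UBR7-KO had no peak on 266.5 kb between 156.8 and 423.3 kb, where WT had 10 peaks covering 12.03 kb.

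In FHIT the libraries parted at both ends. The first 50 kb had 8.03 kb covered in WT and 0.720 kb in UBR7-KO. In contrast, part 10 had covered shares of 2.33% (WT) and 7.40% (UBR7-KO), with the longest UBR7-KO peak of the gene there (59839360 to 59846878, 7519 bp), 15097 bp away from any WT peak. WT had no peak on 317.0 kb of the gene, from 324.7 to 641.8 kb, where UBR7-KO had 7 peaks covering 8.41 kb.

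MACROD2 showed the reverse at its start. Its first 50 kb had 3.34 kb covered in WT and 14.6 kb in UBR7-KO, and its part 1 was covered at 3.54% and 9.92%. The longest UBR7-KO peak of the gene was in this stretch (14000398 to 14006089, 5692 bp), 27.1 kb after the start and 16109 bp from any WT peak.

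IMMP2L had the longest empty stretch. No WT peak fell on 409.3 kb, or 45.5% of the gene, between 172.4 and 581.7 kb after the start, and UBR7-KO had 9 peaks covering 13.07 kb there. These included the longest UBR7-KO peak of the gene (110697991 to 110702213, 4223 bp), 77372 bp away from any WT peak. In LRP1B the empty stretch was on the other side, with no UBR7-KO peak on 377.3 kb between 764.3 and 1142 kb and 2 WT peaks covering 1.85 kb there. With 10 to 117 peaks per gene, such stretches rest on small counts.

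Each gene was also set beside its flanks. Of the 8 genes, 5 in WT and 5 in UBR7-KO were covered less than both flanks of their own length. FHIT, CSMD1, LRP1B and MACROD2 were so in both libraries, IMMP2L only in WT and WWOX only in UBR7-KO. How often other stretches of the autosomes are covered less than both neighbours was not counted. Whether these counts are particular to the genes was therefore not tested. LRP1B lay in a sparsely covered stretch altogether, with 2.54% (WT) and 3.11% (UBR7-KO) upstream and 1.90% and 3.16% downstream. WWOX had an upstream flank covered at 4.98% by WT peaks and 21.3% by UBR7-KO peaks, and a downstream flank at 8.79% and 8.49%. MACROD2 had 3.09% and 6.88% upstream and 15.9% and 9.61% downstream. For FHIT the figures were 4.45% and 9.68% upstream and 9.84% and 10.4% downstream. IMMP2L had 5.24% and 8.15% upstream and 2.26% and 2.02% downstream, so that its UBR7-KO cover inside the gene exceeded that of the downstream flank. PTPRD had 2.14% and 1.89% upstream, below its own share in both libraries, and 5.16% and 7.16% downstream.

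**Figure D5:**
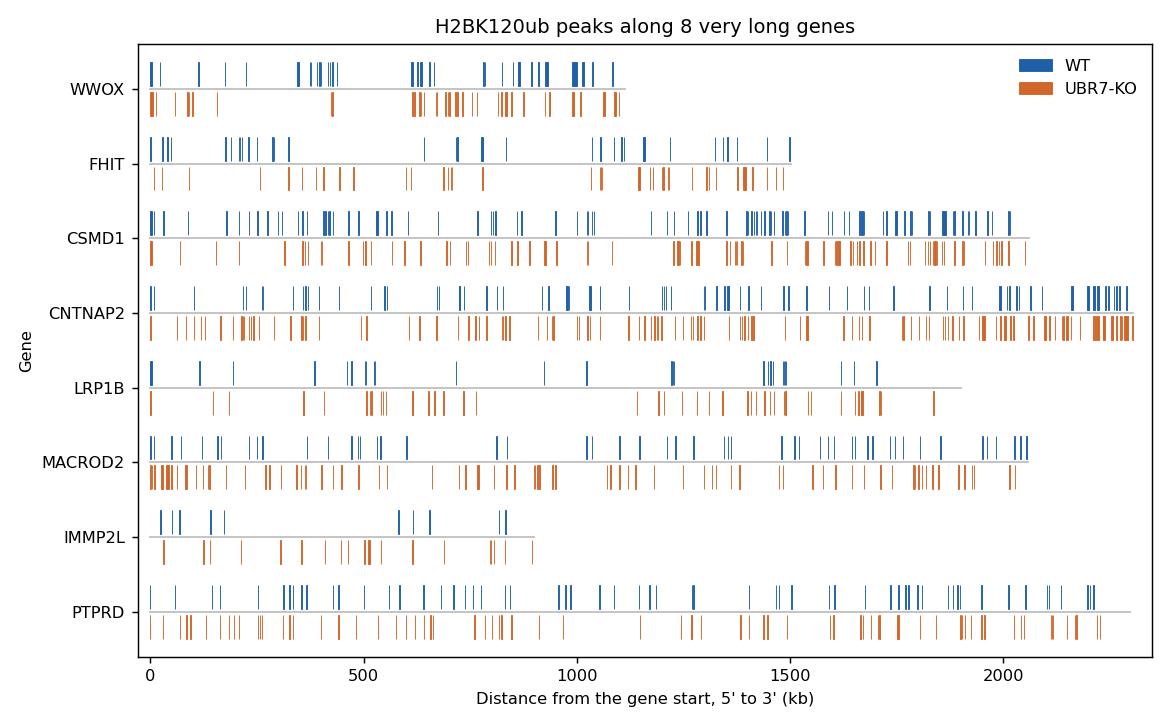
Peaks of WT (upper ticks) and UBR7-KO (lower ticks) along each gene, in kb from its start. Ticks have an outline, so the shortest peaks look wider than they are. The empty WT stretch of 409.3 kb in IMMP2L and the gathering of peaks at the end of CNTNAP2 in both libraries can be seen.

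Finally, the lists were compared by position within the genes. A UBR7-KO counterpart, overlapping by 1 bp or more, was found for 90 of the 375 WT peaks (24%, with 19.95 to 28.6 as the 95% Wilson interval), against 40.2% over the list. A WT counterpart was found for 91 of the 486 UBR7-KO peaks (18.7%, interval 15.5 to 22.4), against 35.2% over the list. In each library all 8 genes had a lower share than the list. The share in WT was highest in CNTNAP2 (26 of 73 peaks, 35.6%) and lowest in FHIT (5 of 32, 15.6%). In UBR7-KO it was highest in CSMD1 (25 of 85, 29.4%) and lowest in MACROD2 (8 of 74, 10.8%). The intervals of single genes overlapped widely, for example 25.6 to 47.1 for CNTNAP2 and 6.86 to 31.8 for FHIT in WT.

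Length and sparse cover moved with the overlap, and their part in it was not tested. Peaks outside the genes, weighted to the lengths of those inside, overlapped in 29.7% of cases in WT and 26.1% in UBR7-KO. In the sparsely covered windows, the shares were 26.8% and 20.1%. Among peaks under 500 bp in the genes, 17 of 139 (12.2%) in WT and 22 of 175 (12.6%) in UBR7-KO had a counterpart, against 19.3% and 15.7% of such peaks outside the genes. Among peaks of at least 4000 bp in WT, 11 of 16 (68.8%) had one, close to the 70.2% outside the genes. For UBR7-KO this was 6 of 15 (40%, Wilson interval 19.8 to 64.3), below the 73.5% outside the genes. Without the pairs at the 6 starts, 84 of 369 peaks in WT (22.8%) and 85 of 480 in UBR7-KO (17.7%) overlapped.

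In bases, both lists covered 77.1 kb of the genes together, which was 17.6% of the covered length in WT and 13.9% of that in UBR7-KO. Over the autosomes, the shares were 40.7% and 45.9%. The product of the covered shares is smaller in sparse regions, and set against it the shared length was 4.48 times as large in the genes and 3.71 times over the autosomes. This multiple ranged from 2.94 in CSMD1 to 6.72 in LRP1B. In CSMD1, WWOX (3.55) and MACROD2 (3.64) it was below the value of the autosomes, and in the other genes above it. Its largest possible value is higher where cover is sparse, so genes and autosomes are not on a like scale. It was not taken over the sparsely covered windows. The part of the 6 start pairs inside the genes made up 8.84 kb, or 11.5%, of the shared length.

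In stretches of 50 kb, of which the genes hold 280, 167 had a peak of both libraries, 32 had WT cover only, 52 had UBR7-KO cover only and 29 had neither. The covered lengths of the 2 libraries ranked across these stretches with a Spearman's rho of 0.30, which describes neighbouring stretches of the same 8 genes and not independent points. By gene, rho ran from -0.17 in MACROD2 (41 stretches) to 0.53 in LRP1B (38 stretches). Neither the counts nor rho were taken over 50 kb stretches elsewhere on the autosomes. Whether they are particular to the genes was therefore not tested.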

How the data were processed

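H2BK120ub ChIP-seq peaks of 1 WT and 1 UBR7-KO library were analysed. Per the methods, the authors aligned reads with BWA aln to hg19 and called peaks in each library separately with MACS under a q-value threshold of unstated value. The processing notes of the submitters name FastQC and Bowtie 1.1.2 instead of BWA. The methods name rabbit IgG beside the H2BK120ub antibody, but whether peaks were called against it, and in which mode, is not given in the sources used here. The deposited pileup is a signal from the authors' peak caller and depends on depth, which is unknown. The deposited fold enrichment is a ratio of pileup plus 1 to local background plus 1 within a library. Positions and lengths were used as deposited, counted from 1, and 6 rows without values were dropped from the UBR7-KO file.

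The genotype in the labels gave the groups. The 8 genes and their hg19 spans were chosen with earlier results of these data known, and so were the measures. Gene starts and ends are the ends of these spans, read 5' to 3' by the known strand of each gene. Exons, inner promoters, nested genes and sequences were not analysed here, as no hg19 annotation or genome was used. All 8 genes are named, and a peak could be given by position only if it was the longest, the highest in fold enrichment or the nearest to the start of its gene in a library. Not all such peaks are printed. Peaks were cut at the span edges for covered length. Chromosome lengths came from GenomeInfoDb 1.38.1 and include assembly gaps. The background was recovered as pileup plus 1 over fold enrichment, minus 1, as MACS defines it, and its floor is the 1st percentile of a list. Scripts ran in Python 3.11.15 (scipy 1.17.1, pandas 2.3.3, numpy 2.4.6), and matplotlib 3.10.9 drew the figures. The interval code was tested on 5000 simulated peaks, where it returned the built-in share of 30%, and against bedtools 2.31.1 on the real lists. No test was run and no p-value is given, since each genotype has 1 library. Alternatives covered the threshold, list size, merging, short peaks, the gene left out, the overlap that counts, the unit of position and the window at the start.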

Additional observations from a re-analysis of the deposited data

How the results depend on the processing

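The threshold on the recovered background was chosen after seeing the data. A ratio, density or length share was held to have moved when it changed by more than 1.5 times, and an overlap when it left its Wilson interval. Leaving out any 1 gene moved 0 of 112 values. Since they pool all the genes, 1 gene has little room to change them by 1.5 times, so this count says little. The cover of part 10 was not among these values. Without CNTNAP2 it fell from 4.79% to 3.24% in WT and from 7.11% to 4.58% in UBR7-KO. A fold enrichment of at least 2.5 left 53 WT and 59 UBR7-KO peaks in the genes, that is 3.75 and 4.17 per Mb and 0.382% and 0.302% covered (ratio 0.789, reversed), with overlaps of 1.89% and 1.69% (8.40% and 11.7% over the lists at that threshold), 21.2% and 4.56% of covered length in part 1, and a peak within 5 kb of 4 and 0 starts. With the pileup at 3 times the recovered background or more, density was 7.22 and 21.9 per Mb (ratio 3.03), cover 0.701% and 2.21% (ratio 3.16), overlap in UBR7-KO 7.44% (12.7% over the list) and part 1 in WT held 18.6% of covered length. Without peaks under 1000 bp, density was 11.2 and 14.9 per Mb. Merging within 5000 bp raised cover in UBR7-KO to 5.92%. Requiring 50% of the counted peak gave overlaps of 14.9% and 13.0%, and 50% of both peaks 9.87% and 7.61%. The cause of these moves was not tested.

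For single genes, 9 of 40 ratios of covered length reversed. At a fold enrichment of 2.5 these were WWOX (4.82), FHIT (0.675), LRP1B (0.517), MACROD2 (0.398) and PTPRD (0.568). At 3 times the background they were WWOX (6.29) and CSMD1 (1.49). Merging turned WWOX to 1.03, and leaving out short peaks turned CSMD1 to 1.01. No paired analysis was possible because there is just 1 library per genotype, so leaving out replicates could not be tried either. The unknown depth limits every comparison of peak number and cover between the libraries.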
